A study of Mus musculus with 6 samples.

Results

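The genes described here are 38 interferon and antiviral response genes, listed by symbol for their role, by a rule that uses no measured value but was set with earlier results of these data known: the receptors for interferon and their kinases, the transcription factors behind them, the sensors of viral RNA and the effectors that interferon induces. Of the 38 symbols, 37 had a row among the 19730 rows of the expression table, and Irf8 was not analysed here. The RNA came from mesangial cells of mouse kidney in primary culture, a smooth-muscle-like cell that supports the capillaries of the glomerulus, and the study asked how the cells respond to transforming growth factor beta 1 (TGF-β1), a secreted protein known for driving scarring. The cells of the 3 Control libraries were untreated and those of the 3 TGF-β1 libraries received 10 ng/ml for 72 h. All 6 shared a medium with 25.5 mM glucose and 20% serum, so the Control cells were also in high glucose. The study used cells of passages 3 to 6, and no label gives the passage of a library. No label says that the replicates came from separate animals or cultures, and the p-values then measure only the spread between these samples, which may be technical.

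Interferons are secreted proteins that warn cells of infection. Type I interferons bind the receptor chains IFNAR1 and IFNAR2 and type II interferon binds IFNGR1 and IFNGR2, and the JAK1, TYK2 and JAK2 kinases then activate STAT proteins, which enter the nucleus and switch on interferon-stimulated genes. Many of these genes carry an interferon-stimulated response element (ISRE) near their start, a pair of GAAA blocks that STAT and interferon regulatory factor (IRF) proteins bind. Their products block virus entry, bind or degrade viral RNA, or tag proteins, and cells of many tissues keep some of them at a low level without infection.

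Expression was given as FPKM, fragments per kilobase of transcript, scaled by the mapped fragments of the library. The 6 libraries held about 10.1 to 11.1 M fragments, recovered from the steps of low FPKM values under an assumed fragment length of 200 nt. Pearson's r of log2(FPKM + 1) over rows lay between 0.876 and 0.940 for libraries of the same group and between 0.818 and 0.853 for libraries of different groups. Smad7, an inhibitor of the pathway that TGF-β itself induces, rose from 11.9 ± 1.84 to 39.3 ± 2.25 FPKM (SD, n = 3 per group), which checks the labels of the groups. Of the mesangial and pericyte markers, Acta2, Vim and Pdgfrb were abundant, but Des, Itga8 and Thy1 were under 1 FPKM in every library. Gata3 was 0.756 to 2.42 FPKM in the Control and 0.846 to 1.26 FPKM in the TGF-β1 libraries. Acta2 and Vim were higher with TGF-β1 and Pdgfrb lower, each without overlap of the groups. The summed FPKM of 6 leukocyte markers was 8.38 to 10.2 in the Control libraries and 2.40 to 3.39 in the TGF-β1 libraries, almost all of it Csf1r and Cd68. Csf1r, the macrophage colony-stimulating factor receptor, fell from 5.91, 7.38 and 5.52 FPKM to 0.476, 0.234 and 0.525 FPKM (log2 change -2.36, adjusted p = 8.56e-05), whereas Cd68 was 2.79 and 2.22 FPKM (means of 3, adjusted p = 0.393). The defining marker Ptprc was 0 in every Control library, and Lyz2 and Itgam were at or near 0. Any part of leukocyte RNA in the changes below was not tested. The 4 endothelial markers summed to at most 0.162 FPKM in any library. The 5 epithelial and podocyte markers summed to 0.379 to 0.814 in the Control and 1.58 to 2.003 in the TGF-β1 libraries. Krt18 made up most of the TGF-β1 sums and rose from 0.279 to 1.57 FPKM, whereas Nphs1 fell from 0.222 to 0.0683 FPKM (means of 3).

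The sequences below are shown because Ifit3, Ifit1 and Isg15 are classical interferon-stimulated genes that moved in different directions with TGF-β1 although each held matches to the same element. They are stretches of RefSeq promoter sequence (mouse build GRCm38.p6), written 5′ to 3′ along the gene's strand, and the capitals mark the ISRE core GAAANNGAAA or its reverse complement TTTCNNTTTC. The Ifit3 stretch is chr19:34583348-34583441 on the plus strand, positions -181 to -88 from the start site, and that of Ifit3b, the neighbouring copy, is chr19:34607744-34607837. The Ifit1 stretch is chr19:34640760-34640838 on the plus strand, positions -129 to -51, and the Isg15 stretch is chr4:156200850-156200921 on the minus strand, positions -103 to -32.
Ifit3: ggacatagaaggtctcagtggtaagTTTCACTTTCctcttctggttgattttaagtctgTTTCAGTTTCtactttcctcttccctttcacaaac
Ifit3b: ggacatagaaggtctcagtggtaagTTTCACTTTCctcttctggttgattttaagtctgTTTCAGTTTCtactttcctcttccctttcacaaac
Ifit1: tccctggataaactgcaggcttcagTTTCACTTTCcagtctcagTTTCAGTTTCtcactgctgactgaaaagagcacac
Isg15: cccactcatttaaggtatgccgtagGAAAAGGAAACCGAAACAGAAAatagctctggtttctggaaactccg
The Ifit3 and Ifit3b stretches were identical in all 94 bases. Ifit1 held the same 2 words as Ifit3, TTTCACTTTC and TTTCAGTTTC, closer together. The 3 matches of Isg15 overlapped each other.

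TGF-β1 did not move these genes as 1 block. The type II receptor chains, Irf1, Isg15, Oasl2 and Ifit1 rose, whereas Ifit3, Ifit2, the Ifitm family, the type I receptor chain Ifnar1 and the factors Irf2 and Irf3 fell, and the Mx, Oas and Rsad2 genes lay near 0 in both groups. Of the 37 genes, 25 had a mean FPKM of at least 1 and were tested with limma on log2(FPKM + 1) together with all 11898 rows above that level. The adjusted p-values below are from that fit, and a gene is called where its adjusted p was under 0.05. Of the 25 genes, 16 (64.0%) were called, against 48.1% of all tested rows. The 7 that rose were 28% of them, against 24.5% of all tested rows, and the 9 that fell were 36.0%, against 23.6%. A log2 change of at least 1 in size was called in 7 genes (28%), against 13.9% of all tested rows. The median log2 change was -0.10, beside -0.02 for all tested rows, and the median size of the change was 0.56 beside 0.40. The libraries of the groups did not overlap for 19 of the 25 genes (76.0%), against 59.4% of all tested rows. Since the RNA is from bulk cultures, fewer cells that express a gene and less RNA per cell cannot be told apart for any of these changes.

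**Figure D1:**
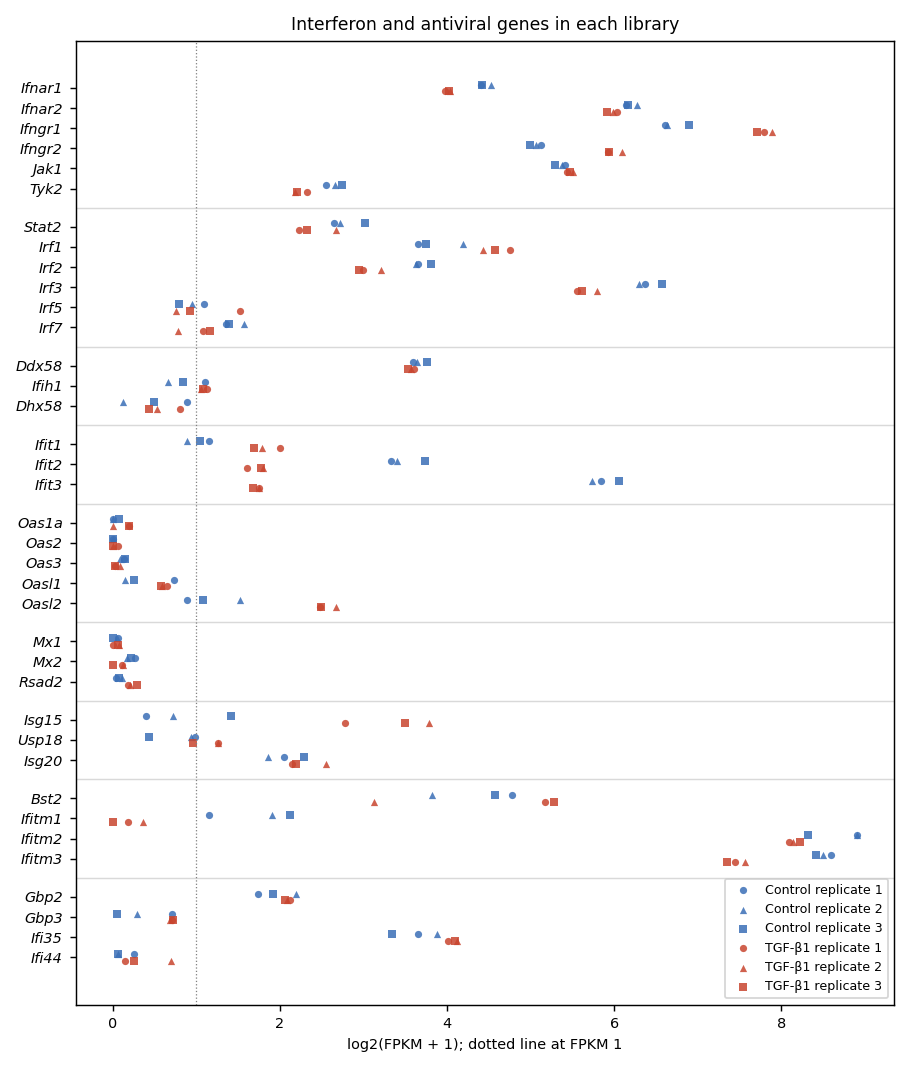
log2(FPKM + 1) of the 37 genes with a row in each of the 6 libraries (blue, 3 Control, red, 3 TGF-β1, the marker shape gives the replicate), grouped by role. The dotted line is an FPKM of 1. Ifit3 and Ifit2 lie far lower in the TGF-β1 libraries, Isg15 and Oasl2 higher, and most Oas and Mx genes near 0 in all 6 libraries.

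**Figure D2:**
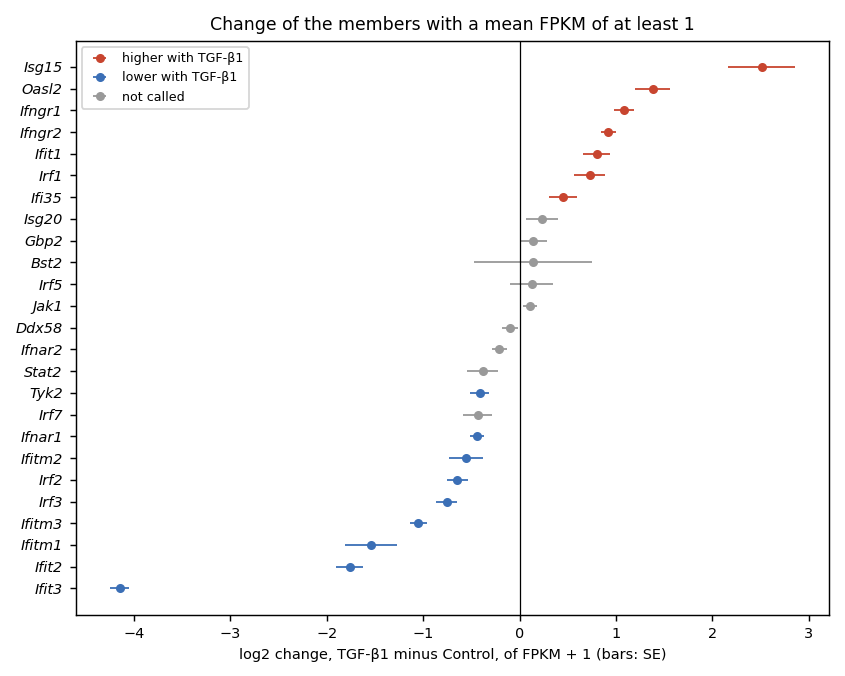
log2 change of FPKM + 1 (TGF-β1 minus Control) of the 25 tested genes, with bars for the standard error of the limma fit. Red is called higher, blue called lower and grey not called. The changes run from -4.15 for Ifit3 to 2.51 for Isg15, and Bst2 has the widest bar.

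Both chains of the type II interferon receptor rose, and of the type I chains only Ifnar1 was called lower. Ifngr1, the ligand-binding chain of the type II receptor, measured 96.4, 98.3 and 118 FPKM in Control replicates 1 to 3 and 220, 235 and 208 FPKM in TGF-β1 replicates 1 to 3. Every TGF-β1 library was above every Control library, and the log2 change was 1.08 ± 0.107 (SE, adjusted p = 4.43e-04). Its partner Ifngr2, which carries the signal through JAK2, was 34.0, 32.6 and 31.0 FPKM in the Control and 60.0, 67.2 and 60.4 FPKM in the TGF-β1 libraries. It rose by a log2 of 0.92 ± 0.0811 (SE, adjusted p = 2.80e-04), again without overlap. Ifnar1, a chain of the type I receptor, fell, from 20.2, 22.1 and 20.3 FPKM to 14.7, 15.4 and 15.2 FPKM, a log2 change of -0.44 ± 0.0738 (SE, adjusted p = 0.00381). Ifnar2, the other type I chain, ran from 69.3 to 76.1 FPKM in the Control and from 59.3 to 64.5 FPKM in the TGF-β1 libraries, and its log2 change of -0.21 did not pass the test (adjusted p = 0.0595). The Ifnar2 gene overlaps Il10rb on the same strand and shares 13.7% of its 50-base words with it, so its level may hold reads of that neighbour. Ifnar1, Ifnar2 and Ifngr2 lie close together on chromosome 16, at 91485483 to 91507686, 91373028 to 91419696 and 91547317 to 91565414 (mm9), all on the plus strand, so 1 of these neighbours rose while Ifnar1 fell.

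Of the receptor kinases, Jak1 serves both receptor types and Tyk2 the type I receptor. Jak1 was 38.3 to 41.4 FPKM in the Control and 42.1 to 44.5 FPKM in the TGF-β1 libraries, a log2 change of 0.11 that did not pass the test (adjusted p = 0.249) although the groups did not overlap. Tyk2 fell from 4.87, 5.34 and 5.70 FPKM to 4.01, 3.54 and 3.62 FPKM (log2 change -0.42, adjusted p = 0.0141). With replicate 2 of both groups left out, the Tyk2 adjusted p was 0.0915.

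The transcription factors also went both ways. Irf1, an activator induced by type II interferon, rose from 11.6, 17.2 and 12.4 FPKM to 26.0, 20.6 and 22.8 FPKM, a log2 change of 0.73 ± 0.164 (SE, adjusted p = 0.0121). Irf2, known as an antagonist of Irf1 at shared sites, was 11.6, 11.3 and 13.0 FPKM in the Control and 6.94, 8.26 and 6.71 FPKM in the TGF-β1 libraries, and fell by a log2 of 0.65 (adjusted p = 0.00348). The groups did not overlap for either gene. Irf3, the factor that viral sensors activate to induce type I interferon, was the most abundant of the group. It measured 81.7, 77.4 and 94.3 FPKM in the Control libraries and 46.0, 54.4 and 48.1 FPKM in the TGF-β1 libraries (log2 change -0.76 ± 0.108, SE, adjusted p = 0.00195). Irf3 overlaps Bcl2l12 on the opposite strand, and whether the authors' FPKM used strand is not stated. The same holds for Irf1, with Gm17334 on the other strand, and for Tyk2, Jak1, Irf5, Irf7 and Ifi35, each of which overlaps another gene.

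Stat2, a STAT protein that acts at ISREs, did not pass the test (5.98 ± 0.984 FPKM in the Control and 4.37 ± 0.889 FPKM in the TGF-β1 libraries, SD, n = 3 per group, log2 change -0.38, adjusted p = 0.0937). Irf7, which amplifies the type I response, lay between 1.56 and 1.98 FPKM in the Control and between 0.721 and 1.24 FPKM in the TGF-β1 libraries, with no overlap and an adjusted p of 0.0524. Irf5 was near 1 FPKM in both groups (adjusted p = 0.671), with its highest value, 1.86 FPKM, in TGF-β1 replicate 1.

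Among the cytoplasmic RNA sensors, only Ddx58, which encodes RIG-I, was above the level for testing. It stayed between 11.04 and 12.6 FPKM in the Control and between 10.5 and 11.1 FPKM in the TGF-β1 libraries (log2 change -0.10, adjusted p = 0.338). Its row names a non-coding transcript of 386 nt of that gene, and whether the value is of that transcript or of the gene is not stated. Ifih1, which encodes the sensor MDA5, ranged from 0.578 to 1.18 FPKM over the 6 libraries and Dhx58, which encodes the related LGP2, from 0.0891 to 0.852 FPKM, with overlap of the groups in both.

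The largest change of all 25 tested genes was that of Ifit3, an interferon-induced protein with tetratricopeptide repeats. Ifit3 measured 56.4, 52.4 and 65.4 FPKM in Control replicates 1 to 3 and 2.36, 2.37 and 2.21 FPKM in TGF-β1 replicates 1 to 3. In fragments of its single annotated transcript this was about 966, 894 and 1083 against 40, 37 and 37. The groups were far apart relative to their spread: the Control mean was 25.1 times the TGF-β1 mean, and the log2 change of FPKM + 1 was -4.15 ± 0.101 (SE, adjusted p = 4.41e-06). Ifit2, a family member that restricts translation of viral RNA, fell too, from 9.06, 9.59 and 12.4 FPKM to 2.04, 2.48 and 2.43 FPKM (log2 change -1.76 ± 0.136, SE, adjusted p = 1.77e-04). The Ifit2 row names a transcript of 700 nt, 1 of 2 of that gene, and as for Ddx58 it is not stated whether the value is of the transcript or of the gene. Ifit1, which binds the capped 5′ end of viral RNA, went the opposite way. It was 1.21, 0.848 and 1.06 FPKM in the Control libraries, about 33, 23 and 28 fragments, and 3.01, 2.45 and 2.22 FPKM in the TGF-β1 libraries, about 81, 61 and 59 fragments. Its log2 change was 0.80 ± 0.138 (SE, adjusted p = 0.00428), with no overlap.

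These 3 genes are neighbours. On mm9 the Ifit cluster ran from 34625184 to 34724499 on chromosome 19, 99.3 kb, and held 6 rows: Ifit2, Ifit3, Gm14446 (Ifit1bl1 in RefSeq), I830012O16Rik (Ifit3b), 2010002M12Rik (Ifit1bl2) and Ifit1. I830012O16Rik fell from 11.9, 12.3 and 13.9 FPKM to 0.208, 0.274 and 0.564 FPKM, a log2 change of -3.35 ± 0.134 (SE, adjusted p = 1.82e-05). It shares 51.5% of the 50-base words of Ifit3, so how the authors' estimate divided reads between the pair is uncertain, but both rows fell. Gm14446 was 0.986, 1.23 and 1.35 FPKM in the Control libraries and 0.0914 FPKM in TGF-β1 replicate 1, and it was listed at 0 in the other two. 2010002M12Rik was 0.210 to 0.420 FPKM in the Control libraries and 0.0906 FPKM in TGF-β1 replicate 1, and was likewise listed at 0 in the other two. Both lay under the level for testing. In a fit of all 19730 rows without that level, which called 30.5% of rows, both were called lower (adjusted p = 4.69e-04 and 0.0152). Ifit1, at the far end of the cluster, was thus the 1 of 6 rows that was higher with TGF-β1. Ifit1 shares 7.14% of its 50-base words with 2010002M12Rik and Gm14446.

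**Figure D3:**
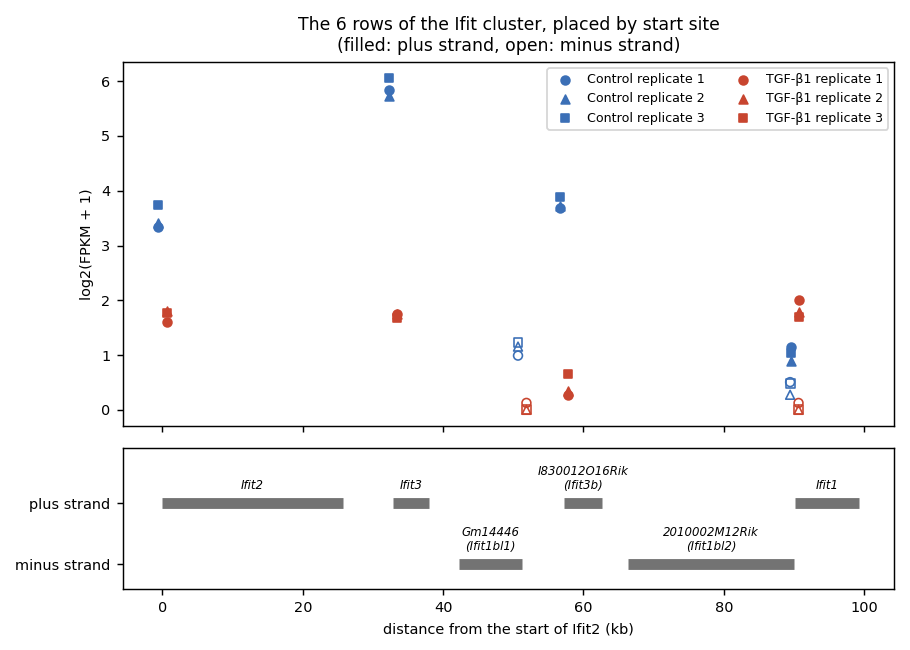
Upper panel, log2(FPKM + 1) of the 6 rows of the Ifit cluster in each library (blue, Control, red, TGF-β1, the marker shape gives the replicate, filled, plus strand, open, minus strand), placed at each gene's start site. The lower panel shows the extent and strand of each gene in kb from the start of Ifit2. In 5 of the 6 rows all TGF-β1 libraries lie under all Control libraries, and for Ifit1 they lie above them.

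Isg15, a ubiquitin-like protein that is attached to other proteins during the antiviral response, had the largest increase. It measured 0.321, 0.647 and 1.67 FPKM in the Control libraries and 5.89, 12.8 and 10.3 FPKM in the TGF-β1 libraries. These values rest on about 2, 4 and 10 fragments against 36, 72 and 62, so the Control level is known only roughly, and both groups were spread widely. The lowest TGF-β1 library was still above the highest Control library, the log2 change of FPKM + 1 was 2.51 ± 0.348 (SE), and the adjusted p was 0.00175. Usp18, the protease that removes ISG15 and damps the type I receptor, was under the level for testing, with about 17, 16 and 6 fragments in the Control and 24, 22 and 16 fragments in the TGF-β1 libraries, and the groups overlapped. Isg20, an RNA exonuclease, was 3.22 ± 0.632 FPKM in the Control and 3.96 ± 0.801 FPKM in the TGF-β1 libraries (SD, n = 3 per group, adjusted p = 0.291).

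The 2′-5′ oligoadenylate synthetases make a small nucleotide messenger on sensing double-stranded RNA, and Oasl1 and Oasl2 are their relatives. Oasl2 rose from 0.855, 1.87 and 1.12 FPKM to 4.59, 5.34 and 4.61 FPKM (log2 change 1.38 ± 0.181, SE, adjusted p = 0.00141), with no overlap. Its neighbour Oasl1 ranged from 0.107 to 0.665 FPKM in the Control and from 0.493 to 0.566 FPKM in the TGF-β1 libraries, which overlapped. Oas1a, Oas2 and Oas3 did not exceed 0.143 FPKM in any library, and Oas2 was listed at 0 in all libraries except TGF-β1 replicate 1. Oas1a shares 53.0% of its 50-base words with Oas1g and Oas1b.

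The Mx proteins are antiviral GTPases and Rsad2 encodes viperin, which blocks virus budding and replication. Mx1 did not exceed 0.0489 FPKM in any library. Mx2 was 0.204, 0.123 and 0.167 FPKM in the Control and 0.0822, 0.0891 and 0 FPKM in the TGF-β1 libraries, about 5, 3 and 4 fragments against 2, 2 and 0, and Rsad2 was 0.0273, 0.0821 and 0.0560 FPKM against 0.138, 0.149 and 0.223 FPKM. Mx2 and Rsad2 were the 2 of the 12 genes under the level for testing whose groups did not overlap, while 20.9% of all 7832 rows under that level did not. The Mx1 and Rsad2 rows also name a processed transcript and one subject to nonsense-mediated decay. In the limma fit of all rows neither was called (adjusted p = 0.106 and 0.0645), and at this depth a handful of fragments separates the groups. None of the 12 was called in that fit, and 2 had an unadjusted p under 0.05. That fit called 30.5% of all 19730 rows, a base that includes the rows above the level. The share called among rows under the level is not given here, so the 12 have no like share beside them. The 12 were Ifih1, Dhx58, Oas1a, Oas2, Oas3, Oasl1, Mx1, Mx2, Rsad2, Usp18, Gbp3 and Ifi44.

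The membrane proteins that restrict virus entry or release included the highest levels of the 37 genes, and all 3 Ifitm genes fell. Ifitm3, which blocks fusion of virus with endosomes, was 384, 361 and 340 FPKM in the Control libraries and 173, 188 and 162 FPKM in the TGF-β1 libraries. It fell by a log2 of 1.05 (SE 0.0928, adjusted p = 2.86e-04), and the groups were well apart. Ifitm1, which acts at the cell surface, fell from 1.23, 2.75 and 3.34 FPKM to 0.133 and 0.291 FPKM in TGF-β1 replicates 1 and 2 and was listed at 0 in replicate 3 (log2 change -1.54 ± 0.272, SE, adjusted p = 0.00463). Ifitm2 was 479, 477 and 317 FPKM in the Control and 271, 280 and 298 FPKM in the TGF-β1 libraries, with a log2 change of -0.56 and an adjusted p of 0.0386. The nearest libraries of the 2 groups, Control replicate 3 and TGF-β1 replicate 3, were close. The Ifitm2 call was lost in 8 of 18 alternative fits, 5 of them with any 1 library other than Control replicate 3 left out (adjusted p = 0.0792 to 0.113). Without Control replicate 3, the log2 change was -0.76 and the adjusted p 0.00154. Ifitm2 shares 11.1% of its 50-base words with other genes, Gm5331 and Ifitm3. Ifitm3 shares 10.0% with Gm7676, Ifitm2 and Ifitm1, and Ifitm1 shares 5.02% with Gm7676 and Ifitm3.

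Bst2, or tetherin, which holds budding virus at the cell surface, was 26.4, 13.1 and 22.8 FPKM in the Control and 35.0, 7.73 and 38 FPKM in the TGF-β1 libraries. Replicate 2 was the lowest library of both groups, and with all libraries the log2 change was 0.14 ± 0.609 (SE, adjusted p = 0.869). From replicates 1 and 3 alone, the log2 change was 0.55 with an adjusted p of 0.0305. With all libraries kept and replicate 2 as a batch term, the log2 change was 0.14 (adjusted p = 0.688). A replicate block gave the same log2 change (adjusted p = 0.718). The cause of the low replicate 2 values was not tested.

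The guanylate-binding proteins are GTPases that type II interferon induces. Gbp2 was 2.34 to 3.58 FPKM in the Control and 3.18 to 3.37 FPKM in the TGF-β1 libraries (log2 change 0.14, adjusted p = 0.428), and Gbp3 was under 1 FPKM in all libraries. Ifi35, an interferon-induced leucine zipper protein, rose from 11.5, 13.8 and 9.17 FPKM to 15.1, 16.4 and 16.04 FPKM (log2 change 0.45 ± 0.143, SE, adjusted p = 0.0421). This call was lost in 9 of 18 alternative fits, 5 of them with any 1 library other than Control replicate 2 left out, and the adjusted p ranged from 0.0187 to 0.168 over the 18. Ifi44, an interferon-induced protein, did not exceed 0.624 FPKM.

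A RefSeq promoter window of 250 bases before to 50 bases after the start site was at hand for 32 of the 37 genes. The ISRE core (GAAANNGAAA, either strand, overlapping matches counted) was found for 15 genes (46.9%), in 15 of their 37 windows (40.5%), while 3.44% of all 32851 mouse promoter windows of that length held it. Of the genes that rose, 2 of 7 held it, Ifit1 and Isg15. Of those that fell, 4 of 9 held it, Ifit3, Ifitm2, Ifitm3 and Irf2. Among the genes that were not called it was found in 4 of 9, Bst2, Ddx58, Gbp2 and Stat2, and among those under the level for testing in 5 of 7, Gbp3, Ifih1, Oas1a, Oas3 and Rsad2. Matches therefore occurred in genes of every outcome, as the stretches of Ifit3 and Ifit1 printed above show. Only this exact core was searched in these windows, so genes without a match may hold other forms of the ISRE or hold it elsewhere. Of the sites that STAT dimers bind, only the form TTCCNGGAA was searched. This form was found for 3 genes, Ifnar2, Ifit2 and Bst2, and in 1.15% of all windows, and genes without it may hold other forms. A match describes the letters of the window and is not evidence that a factor was bound.

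A second list held 96 other interferon pathway genes, of which 79 had a row and 51 rows were tested. Of these 51, 22 (43.1%) were called, close to the 48.1% of all tested rows, 9 higher and 13 lower. Jak2, the kinase of the type II receptor, was 6.77 FPKM in the Control and 8.56 FPKM in the TGF-β1 libraries (means of 3, adjusted p = 0.0546). The ligands measured were at or near 0: Ifnb1 was listed at 0 except for 0.161 FPKM in TGF-β1 replicate 3, Ifne at 0 except for 0.196 and 0.198 FPKM in TGF-β1 replicates 1 and 3, and Ifnk at 0 except for 0.149 FPKM in Control replicate 2. The 5 largest increases without overlap were of Slfn2 (0.977 to 6.07 FPKM, log2 change 1.85), Ifi30, a lysosomal thiol reductase of antigen processing (137 to 269 FPKM), Tlr3, an endosomal sensor of double-stranded RNA (0.888 to 1.78 FPKM), Traf3, an adaptor of the sensors (3.59 to 5.31 FPKM), and Ifi27, listed as Ifi27l1 (37.5 to 49.4 FPKM). Among the 5 largest decreases were those of Lgals9, a galectin (18.6 to 3.66 FPKM, log2 change -2.07), Socs3, an inhibitor of JAK kinases (14.4 to 4.96 FPKM), Samhd1, which hydrolyses deoxynucleotides (41.3 to 16.6 FPKM), and Ikbke, a kinase that activates IRF3 (13.6 to 6.23 FPKM). The count of called genes of this list was 12 with Control replicate 2 or TGF-β1 replicate 1 left out, 13 without Control replicate 1 or TGF-β1 replicate 3 and 14 without TGF-β1 replicate 2. The calls over all tested rows also fell in these fits, from 5721 to between 4419 and 5169.

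**Figure D4:**
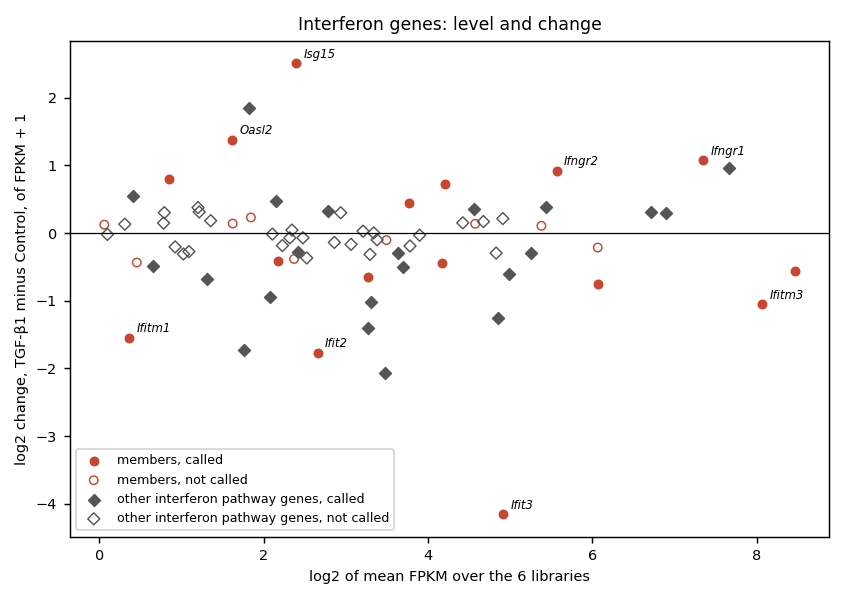
log2 of the mean FPKM over the 6 libraries against the log2 change of FPKM + 1 (TGF-β1 minus Control) for the tested genes of both lists (red circles, the 25 members, grey diamonds, the 51 other interferon pathway genes, filled, called). Changes of either sign occur at low and at high levels, and Ifit3 has the largest change.

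Scaling each library to a common sum of protein-coding rows moved the median log2 change of all tested rows from -0.02 to -0.19, and the split of all calls from 2911 higher and 2810 lower to 2015 higher and 3927 lower. Under that scaling 19 of the 25 genes were called, 6 higher and 13 lower, and the 6 higher were the 7 named above without Ifi35.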

How the data were processed

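RNA-seq of 3 Control and 3 TGF-β1 libraries was used, with groups and replicate numbers taken from the sample labels. The authors mapped quality-filtered reads to the mouse build mm9 with TopHat (2.0.11 in the submitters' processing notes) and estimated transcript abundance with Cufflinks, and they deposited FPKM, 1 column per library. Neither scaling between libraries nor the use of strand is stated. The authors' own test was a count model (DESeq), which cannot be run on FPKM. Rows were placed on mm9 with GENCODE M1, which held 19699 of 19730 row transcripts. It is not stated whether a row is a gene or only the transcript it names. Of 147 low rows that name a transcript of 300 to 499 nt of a gene with several, 75 had a value under that of 1 fragment of the named transcript.

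The 11898 rows whose mean FPKM reached 1 were tested on log2(FPKM + 1) with limma 3.58.1 in R 4.3.3 (moderated, two-sided, mean-variance trend, Benjamini-Hochberg over these rows, threshold 0.05). Fold changes on this scale understate the change of low genes. The same model was fitted to all 19730 rows for genes under that level. The fit was tested on simulated data first. Of the low values of genes with 1 transcript, 99.4% to 99.9% per library were whole multiples of 1 fragment within 0.05, which gave the depth. Numbers of fragments are approximate, and the SD values are of the spread between libraries. The SE values are of the limma fit, which moderates the spread of each gene between libraries toward a trend over all tested rows. Shared sequence is the share of a gene's 50-base words found in other genes. Alternatives were other pseudocounts, filters and scalings, no trend, a replicate block and replicate 2 as a batch term. Fits of replicates 1 and 3 only and with each library left out were also alternatives. Another, chosen after seeing the data, kept only rows of protein-coding genes that name a transcript of at least 300 nt. It went by the type of the gene, so the Ddx58 row stayed in. All 38 members are accounted for, and of the other interferon list Jak2, the ligands and the 5 largest called changes each way without overlap are named, except for items that are not reported here. Irf9 of that rule was not analysed here. The members and lists were chosen with earlier results of these data known.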

Additional observations from a re-analysis of the deposited data

How the results depend on the processing

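The count of called interferon and antiviral genes, 16 of 25, was 14 to 19 over 18 alternatives and 14 to 15 with 1 library left out. The base was not always 25: 14 of 21 were called with the filter of mean FPKM 3. Over all rows above that filter 4904 were called, but their share is not given here, so the 14 of 21 has no like share beside it. Without a filter 14 of 37 were called (37.8%), against 30.5% of all rows. The calls of all rows, 5721 in the main fit, ran from 4195 to 6026 over the alternatives. Of 446 values of single genes under alternatives, 411 kept their direction and their side of the threshold, 18 lost the call, 10 gained one and 7 changed sign. The lost calls were of Ifi35 (9 alternatives), Ifitm2 (8) and Tyk2 (1), and the gained ones of Irf7 (4), Stat2 and Ifnar2 (2 each) and Ddx58 and Bst2 (1 each). No called gene changed sign. Under the common sum of protein-coding rows the log2 changes of Gbp2, Jak1 and Bst2 were -0.0059, -0.0825 and -0.0466. That of Irf5 ran from -0.10 (without TGF-β1 replicate 1) to 0.28 with 1 library left out, and that of Bst2 ran from -0.24 to 0.84 with 1 library left out.

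The replicate numbers do not pair the samples by the labels. The deviations of same-numbered libraries correlated with r of 0.0921, 0.232 and 0.0853, and TGF-β1 replicate 3 correlated better with Control replicate 1 (0.117). The other differently numbered pairs had r from -0.194 to -0.016. With the replicate block, 15 of the 25 genes (7 higher, 8 lower) and 5391 of all rows were called, and Ifitm2 lost its call (adjusted p = 0.0578). The block left 16 of the other interferon genes called, 5 of them higher.

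The called genes of the other interferon list, 22 (9 higher, 13 lower), were 12 (4 higher, 8 lower) from replicates 1 and 3 only, where the calls over all rows fell from 5721 to 4195, and the higher ones were 5 under upper-quartile scaling and 3 under the common sum. With 1 library left out there were 12 to 19 called, 3 to 9 higher and 8 to 10 lower. Of the 12 genes under the level for testing, 0 were called by limma in the fit of all rows and 2 had an unadjusted p under 0.05. From replicates 1 and 3 only, 1 was called, and with 1 library left out 0 to 2 were. With rows of non-coding genes, or that name a transcript under 300 nt, left out, 1 was called. The cause of these differences was not tested. Depth limits the genes at a few fragments, such as Mx2 and Isg15 in the Control libraries.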
